A study of Rattus norvegicus with 4 samples.

Results

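The miRNAs described here are the late-numbered ones, which are the rat miRNAs named miR-3000 and above. A miRNA number is given roughly in the order in which miRNAs are registered, so these names entered the catalogue late, and many of them are annotated in rodents but not in most other mammals. The members are all annotated mature products with a number of 3000 or more, whatever their letter or arm suffix, except miR-3072, and counts of loci with the same name were added. This gave 108 of the 740 miRNA names in the table, from 88 genes. The rule used names and not reads, but it was chosen with earlier results of these data known. The lowest numbers inside the boundary belonged to miR-3064-5p, with 11 reads in RC-cells, 4 in RC-MVs and then 13 and 2 in GC-cells and GC-MVs, and to miR-3064-3p, with 4, 0, 4 and 0 reads in that order, which is kept below. The nearest name outside it, miR-2985, had 0 reads in all 4 libraries, and the excluded miR-3072 had 82, 12, 51 and 3 reads.

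Small RNA was sequenced from 4 libraries of rat costochondral cartilage, the rib cartilage that holds a growth plate. RC-cells were chondrocytes of the resting zone and GC-cells were chondrocytes of the growth zone, from male Sprague Dawley rats of unstated age, with no genetic change or treatment. Both were used at passage 4, as confluent cultures in medium with ascorbic acid and fetal bovine serum that had been centrifuged to remove exosomes. RC-MVs and GC-MVs were the matrix vesicles of these cultures, which are membrane-bound particles held in the extracellular matrix, and they were released from the cell layer with trypsin and pelleted by centrifugation. Each group was 1 library, so no difference had a replicate check and no p-value was computed. How many animals were behind a library is not given in the sources used here.

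A miRNA gene is transcribed into a hairpin, which is cut to a short duplex with a 5p arm and a 3p arm. One arm is usually loaded into an Argonaute protein, while the other is degraded, and bases 2 to 8 of the loaded arm, the seed, pair with target mRNAs. Both strands of a locus can carry an annotated hairpin, in which case the miRNAs of the opposite strands are complementary to each other. Late-numbered miRNAs were mostly found by deep sequencing of small RNA, and few of them have a described role in cartilage.

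The mature sequences of the members that carried most of the reads, or that differed most between vesicles and cells, are given 5′ to 3′ with the seed in capitals, as listed by RefSeq for the GRCr8 assembly, where 98 of the 108 members had a sequence. All but miR-6331 lie within the span of a protein-coding gene there. The miR-3559 and miR-3068 hairpins each gave reads of both arms. miR-3559 lies on chromosome X within Zdhhc15, miR-3068 on chromosome 6 within Alkbh1, miR-6329 on chromosome 8 within Rdx, miR-6328 on chromosome 20 within Ppp1r18, miR-3473 on chromosome 13 within Zranb3 and miR-3102 on chromosome 1 within Arhgef17. miR-6331 lies on chromosome 6 within an uncharacterised long noncoding RNA gene. Both arms of miR-3068 are listed under the symbol Snora58, the name of a small nucleolar RNA, although RefSeq classes the gene as a miRNA with Mir3068 as its other name. The origin of the reads of both arms, from a miRNA hairpin or such an RNA, was not tested. Its locus is on the strand of its host gene, whereas miR-6329, miR-6328 and miR-3473 are on the strand opposite theirs.
miR-3559-5p: uGACAGACuuaguacuacauga
miR-3559-3p: aUGUAGUAcugagucugucgug
miR-3068-5p: uUGGAGUUcaugcaaguucuaacca
miR-3068-3p: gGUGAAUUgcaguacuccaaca
miR-6329: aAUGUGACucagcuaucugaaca
miR-6331: cUUUGGUGgcuuaguucuuugugc
miR-6328: aGGCCUGCucugagcccccgc
miR-3473: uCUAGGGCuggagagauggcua
miR-3102: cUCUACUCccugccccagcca
None of these 9 shares its seed with another name in the table that has a sequence. Among all members, 4 shared a seed with a miRNA numbered below 3000, and 1 of them, miR-3065-5p, had reads.

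Most late-numbered miRNAs gave no reads at all. At least 1 read was found for 29 of the 108 members in RC-cells (26.9%) and 20 in RC-MVs (18.5%), and for 32 in GC-cells (29.6%) and 16 in GC-MVs (14.8%). The other 632 names were detected far more often, with 467 (73.9%), 411 (65.0%), 469 (74.2%) and 415 (65.7%) of them found in the same order. In any library, 36 members were detected (33.3%), against 502 of the other names (79.4%). In all 4 libraries, the numbers were 12 members (11.1%) and 372 other names (58.9%). The cells and vesicles were not sequenced to the same depth, as the libraries held 6517329, 1108821, 7414467 and 982543 miRNA reads in the order above. At the smallest of these depths, the number of members expected to be seen was 19.0 for RC-cells and 19.4 for RC-MVs, and 18.7 for GC-cells and 16 for GC-MVs. At that depth the higher number in cells was therefore not seen in RC. In GC the cells stayed above the vesicles, at 18.7 against 16, by a smaller margin than before. The 72 members at 0 reads in every library are limited to less than 4.60e-05%, 0.000271%, 4.05e-05% and 0.000305% of miRNA reads in the 4 libraries, which is what 3 reads would give. All intervals and limits here are at the 95% level and cover counting error only, as each group was 1 library. PCR copies of a molecule count as separate reads, so the intervals can be too narrow. A fold given with 0 reads set at 3 is not such a limit.

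**Figure D1:**
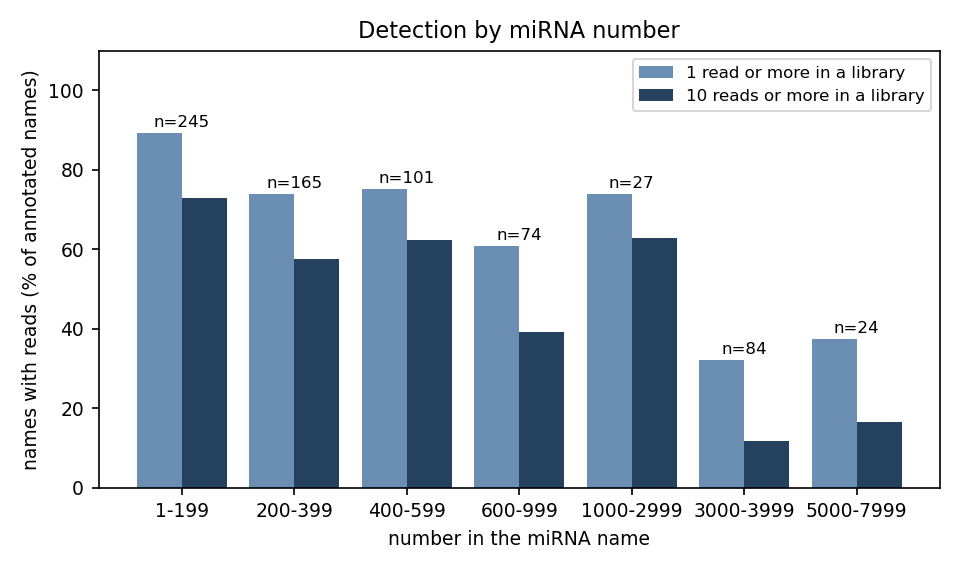
Percent of annotated miRNA names with at least 1 read (light bars) or at least 10 reads (dark bars) in any of the 4 libraries, by the number in the name, with the number of names (n) above; the let-7 names, which have no number, and miR-3072 are left out. From 60.8% to 89.4% of the names in each range below 3000 were detected, against 32.1% of 84 names from 3000 to 3999 and 37.5% of 24 names from 5000 to 7999.

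Detection did not decline steadily with the number. Of the 27 names from 1000 to 2999, 74.1% were detected, compared with 32.1% of the names in the 3000s. With at least 10 reads in a library, 14 members remained (13.0%), against 403 other names (63.8%). The remaining 22 detected members had between 1 and 23 reads over the 4 libraries, with a median of 5, and 4 of them were single reads. Members with a 5p suffix were detected in 11 of 20 cases, those with a 3p suffix in 7 of 20 and those with no suffix in 18 of 68. The GC content of the mature sequence had a median of 48.9% in the 32 detected members with a sequence and 50% in the 66 undetected ones, and both sets had a median length of 22 bases.

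Detection was also counted by position relative to other miRNA genes. In RefSeq, 28 members lie on the strand opposite another miRNA gene, and 4 of them had reads (14.3%). Of the 61 members with no other miRNA gene within 10 kb, 26 had reads (42.6%), and of 9 members within 10 kb of one but not opposite it, 2 had reads (22.2%). Among 26 of the opposite-strand members that overlap the mature partner by at least 15 bases, from 16 to 22, 23 had 0 reads in every library, and for 19 of these 23 the partner had 100 reads or more. The let-7 family, which acts in developmental timing, provided the clearest pairs. The deepest pair is shown, with the partner in lower case without a marked seed. Its late-numbered miRNA is the exact reverse complement of part of its partner.
miR-3596d: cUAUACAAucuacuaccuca
let-7f-5p: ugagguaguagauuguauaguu
The partner let-7f-5p had 153456, 2852, 156626 and 1866 reads in the order of the libraries used above, while miR-3596d had 0 in all 4. The same held for miR-3596a opposite let-7a-5p, which had 39351, 2954, 35197 and 1895 reads, and for miR-3596b and miR-3596c opposite let-7d-5p and let-7e-5p. miR-3591, opposite the liver miRNA miR-122-5p, had 0 reads although its partner had 32 and 4447 reads in cells and vesicles of RC and 34 and 11225 in those of GC. miR-3556a had 1 read, in RC-MVs, opposite miR-29a-3p with 64743 reads over the 4 libraries. Over these 26 pairs, the partners held 545380 reads and the late-numbered members 28. The reads of a partner are those of its name with all loci added, so some can come from a locus elsewhere. For example, let-7a-5p is also listed for another gene, which lies near miR-3596b and not opposite it. Abundant reads of a partner were thus not counted for the miRNA on the other strand.

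Reads went the other way at a single locus, where miR-3065 lies opposite miR-338, a miRNA of neural tissue encoded in the gene Aatk. The sequences are shown because here the late-numbered strand was the one with reads.
miR-3065-5p: uCAACAAAaucacugaugcu
miR-338-3p: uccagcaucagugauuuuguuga
miR-3065-5p had 9, 1, 11 and 3 reads in that order, and miR-3065-3p had 0, 1, 0 and 2. miR-338-3p and miR-338-5p had 0 reads in all 4 libraries. The reads were few, so the lead of miR-3065-5p rests on 24 reads in total, 20 of them from the cells.

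**Figure D2:**
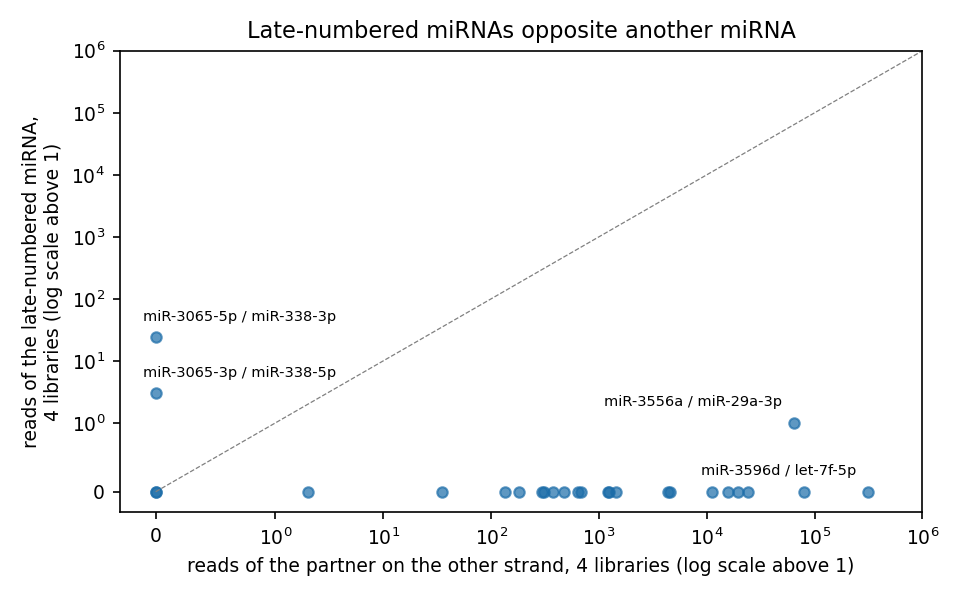
Reads of 26 late-numbered miRNAs (vertical axis) and of the miRNA they overlap on the opposite strand (horizontal axis). Each is summed over the 4 libraries and all loci of the name. Both axes are logarithmic above 1 read and the dashed line marks equal reads. The points lie along the bottom, with partners at up to 314800 reads, except for the pair of miR-3065 arms at the left, whose miR-338 partners had 0 reads.

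The reads of the members made up a very small part of all miRNA reads. Their sum was 2244 reads for RC-cells and 268 for RC-MVs, and 2465 for GC-cells and 210 for GC-MVs. In percent of all miRNA reads this was 0.0344% (Wilson interval 0.0330% to 0.0359%) and 0.0242% (0.0214% to 0.0272%) for cells and vesicles of RC, and 0.0332% in GC-cells (0.0320% to 0.0346%) and 0.0214% in GC-MVs (0.0187% to 0.0245%). The sum was therefore higher in both cell libraries than in both vesicle libraries. Vesicles of RC had a summed percent 1.42-fold lower than their cells (exact Clopper-Pearson interval 1.25 to 1.62) and 1.56-fold lower in GC-MVs than in GC-cells (1.35 to 1.80). Between zones it was close, with a ratio of 1.04 for RC-cells over GC-cells (0.978 to 1.10) and 1.13 for RC-MVs over GC-MVs (0.940 to 1.36). Other scalings turned both directions, to between 0.809 and 0.831 for the cells, with intervals below 1, and to between 0.731 and 0.983 for the vesicles, where 0.731 (0.608 to 0.879) came from totals without the 3 most abundant miRNAs. Much of the difference between vesicles and cells lay in 1 hairpin. It was picked after its values were seen, so leaving it out had to raise the vesicle-to-cell ratio. Without both arms of miR-3559, the vesicle-to-cell ratio of the sum was 0.961 in RC (0.838 to 1.10) and 0.892 in GC (0.768 to 1.03), and both intervals included 1. This inclusion was lost in GC with TMM, at 0.764 (0.657 to 0.884), and DESeq2, at 0.806 (0.693 to 0.933), and in RC without the 3 most abundant miRNAs in the totals, at 0.830 (0.724 to 0.949).

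A handful of members held nearly all of these reads. The 14 members with at least 10 reads in a library held 97.4% of the reads of all 108 over the 4 libraries, and 6 names from 4 hairpins held 88.9%. miR-3559-5p led in both cell libraries, at 24.8% of member reads for RC and 24.1% for GC, and miR-3068-5p led in both vesicle libraries, at 30.2% and 31.0%. The miR-3559 hairpin gave 30.7% of member reads in each cell library and 5.22% in RC-MVs and 3.81% in GC-MVs. In contrast, the miR-3068 hairpin gave similar shares in all 4, from 30.3% in RC-cells to 36.2% in GC-MVs. Only 5 members had at least 10 reads in every library, and these were miR-3068-5p, miR-6329, miR-6331, miR-3473 and miR-6328.

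**Figure D3:**
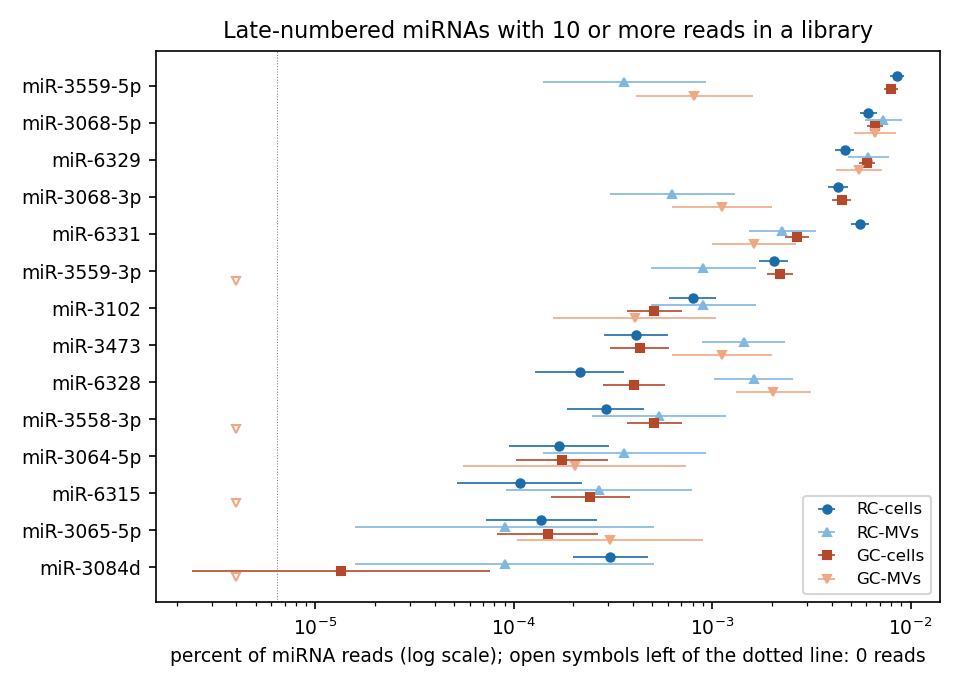
Percent of all miRNA reads (log scale) of the 14 late-numbered miRNAs with at least 10 reads in a library, in the 4 libraries, with Wilson intervals; open symbols left of the dotted line had 0 reads. The vesicle symbols of miR-3559-5p and miR-3068-3p lie left of their cell symbols, and those of miR-6328 and miR-3473 lie right of them.

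Among members at 10 reads or more in both libraries of a zone, 2 of 7 were enriched 2-fold or more in RC-MVs over RC-cells and 2 were depleted by as much. Over all names so filtered, 34.5% of 293 were higher and 28.3% lower, and the median log2 ratio was 0.25 for the members and 0.12 for all names. In GC-MVs against GC-cells, 2 of 6 members were higher and 1 lower, beside 30.2% and 22.2% of 275 names, with medians of -0.07 and 0.19. A minimum in both libraries removes miRNAs that are nearly absent from vesicles, so the count was repeated with 10 reads in the cell library only. Then 3 of 12 members were higher and 5 lower in RC-MVs, beside 26.7% and 33.8% of 390 names. In GC-MVs, 3 of 13 were higher and 3 lower, beside 24.3% and 27.8% of 395 names. As a set, the members were thus divided between vesicles and cells in proportions near those of all miRNAs, while single members stood far to each side. No member had 10 or more reads in a vesicle library and fewer than 10 in the cell library of its zone.

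miR-3559-5p was the member most depleted from RC-MVs, and both arms of its hairpin were low in vesicles. miR-3559-5p had 557 reads in RC-cells against 4 in RC-MVs, and 594 in GC-cells against 8 in GC-MVs. Had the vesicles held it at the percent of the cells, 94.8 reads would have been present in RC-MVs and 78.7 in GC-MVs. Its percent fell short of that in RC-cells 23.7-fold in RC-MVs (9.20 to 87.3) and of that in GC-cells 9.84-fold in GC-MVs (4.96 to 22.9). The other arm, miR-3559-3p, had 133 reads in RC-cells against 10 in RC-MVs, and 163 in GC-cells against 0 in GC-MVs. It was 2.26-fold lower in RC-MVs (1.19 to 4.83) and at least 7.20-fold lower in GC-MVs, with 0 reads set at 3. Such a fold is a convention and not an end of the 95% interval, which here began at 5.79-fold. Both arms were therefore low in both vesicle libraries, and high in both cell libraries at nearly equal percents.

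In the miR-3068 hairpin the arms parted between vesicles and cells. miR-3068-5p had 400 and 81 reads in cells and vesicles of RC and 491 and 65 in those of GC, and its vesicle-to-cell ratio was 1.19 in RC (0.926 to 1.51) and 0.999 in GC (0.759 to 1.30). miR-3068-3p had 280, 7, 333 and 11 reads in the same order. The 3p arm was 6.81-fold lower in RC-MVs (3.26 to 17.1) and 4.01-fold lower in GC-MVs (2.21 to 8.11), where it had the 22nd lowest ratio of 275 names. The 5p arm made up 58.8% of the reads of both arms in RC-cells (exact binomial interval 55.0% to 62.6%) and 59.6% in GC-cells (56.1% to 63.0%). It made up 92.0% in RC-MVs (84.3% to 96.7%) and 85.5% in GC-MVs (75.6% to 92.5%), so the intervals of vesicles and cells did not overlap. The odds of a read being 5p were 8.10 times as high in RC-MVs as in RC-cells (exact interval 3.67 to 21.1) and 4.01 times as high in GC-MVs as in GC-cells (2.06 to 8.54).

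The miR-3559 arms showed no such shared pattern. The 5p share was 80.7% in RC-cells and 78.5% in GC-cells, but 28.6% in RC-MVs, from 4 of 14 reads (8.39% to 58.1%), and 100% in GC-MVs, from 8 of 8 reads (63.1% to 100%). The 2 vesicle libraries thus went to opposite sides of the cells on 22 reads in all. Of the 20 members' hairpins with both arms annotated, 7 had reads of both arms, 4 of a single arm and 9 of neither.

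**Figure D4:**
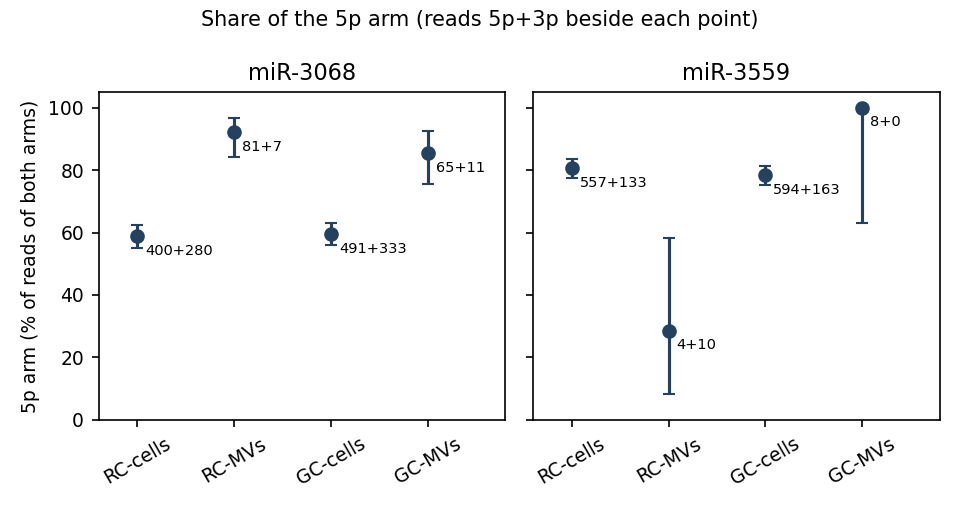
Share of the 5p arm in the reads of both arms of miR-3068 and miR-3559, in percent, with exact binomial intervals and the reads of each arm (5p+3p) beside each point. For miR-3068 both vesicle libraries lie above both cell libraries, at 92.0% and 85.5% against 58.8% and 59.6%, while for miR-3559 they lie on opposite sides of the cells.

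On the other side stood miR-6328 and miR-3473, both scarce in cells. miR-6328 had 14 and 18 reads in cells and vesicles of RC and 30 and 20 in those of GC, although the vesicle libraries were several times smaller. It was enriched 7.56-fold in RC-MVs (3.55 to 16.4), the 19th highest of 293 ratios, and 5.03-fold in GC-MVs (2.71 to 9.16), the 21st highest of 275. It was the one enriched member whose interval lay wholly above 2-fold in both zones. With 76.2% G and C in its 21 bases, it was also the richest in these bases among the 9 members printed above. miR-3473 had 27, 16, 32 and 11 reads and was enriched 3.48-fold in RC-MVs (1.75 to 6.70) and 2.59-fold in GC-MVs (1.18 to 5.28), the 59th highest ratio in both comparisons.

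The reads of miR-3473 cannot be assigned to its gene alone from its sequence. Part of it matches the B2 element, a short interspersed repeat that is spread over rodent genomes. Its bases 3 to 18, in the order in which they are printed above and searched on both strands, occurred in 8 of 33469 windows around the start sites of genes in RefSeq (0.0239%). Of 686 miRNA names searched in this way, it was the only one with more than 1 match, and 1 other of the 98 members searched had any. How reads with several matches in the genome were counted is not given in the sources used here.

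Between these sides lay miR-6329 and miR-3102. miR-6329 had 303 and 68 reads in cells and vesicles of RC and 449 and 54 in those of GC, with a vesicle-to-cell ratio of 1.32 in RC (0.999 to 1.72) and 0.908 in GC (0.671 to 1.21). miR-3102 had 52, 10, 38 and 4 reads and ratios of 1.13 (0.512 to 2.25) and 0.794. For both miRNAs, no difference between vesicles and cells was detectable at this depth. miR-6331, with 363, 25, 198 and 16 reads, had ratios below 1 in both zones. It was 2.47-fold lower in RC-MVs (1.65 to 3.87), while its ratio of 0.610 in GC had an interval from 0.342 to 1.02. With TMM and DESeq2 scaling the GC ratio was 0.522 (0.293 to 0.869) and 0.550 (0.309 to 0.916), so both zones were then below 1.

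**Figure D5:**
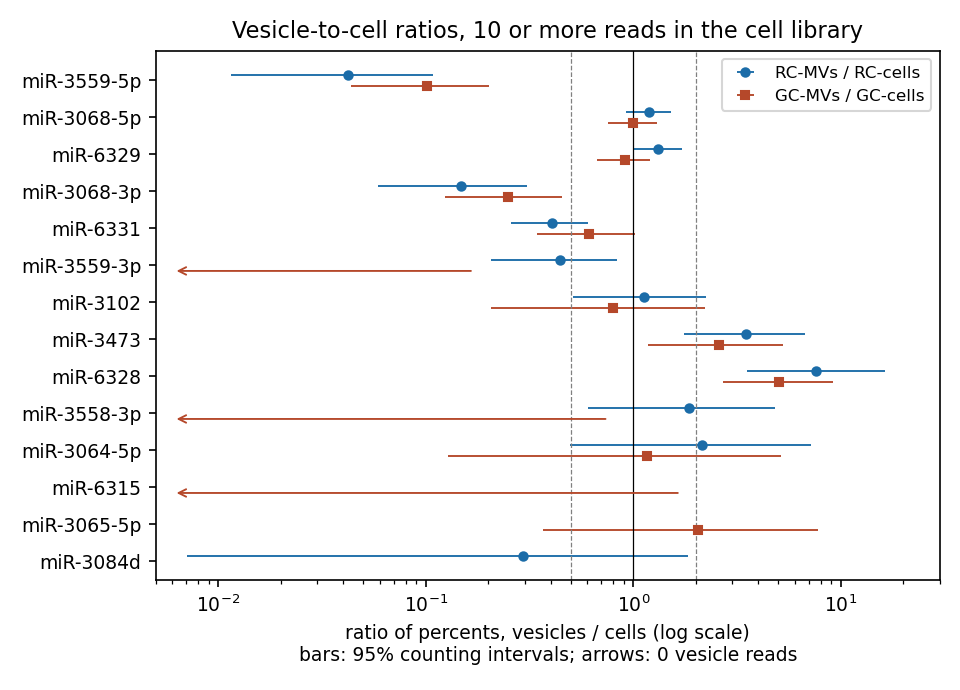
Vesicle-to-cell ratio of percents (log scale) of late-numbered miRNAs with at least 10 reads in the cell library, in RC (circles) and GC (squares), with exact counting intervals; the solid line marks 1, the dashed lines 2-fold, and arrows mark members with 0 vesicle reads, drawn from the upper end of their interval. miR-3559-5p and miR-3068-3p lie left of the 2-fold line in both zones and miR-6328 lies right of it in both.

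The remaining members with 10 reads or more somewhere were too scarce for a reliable ratio. miR-3558-3p had 19, 6, 38 and 0 reads. With 0 reads set at 3, it was 1.68-fold lower in GC-MVs than in GC-cells. That fold is not a limit, as the exact interval began at 1.30-fold. miR-6315 had 7, 3, 18 and 0 reads, and no fold can be given in GC. miR-3064-5p, miR-3065-5p and miR-3084d had between 0 and 4 reads in each vesicle library. There were 14 of 108 members seen in cells and not in vesicles, beside 59 of the 632 other names, and the highest of these members' counts was 6 reads. In vesicles only, 2 members and 13 other names were seen.

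Across all names with 10 reads in the cell library, the vesicle-to-cell ratio went with the GC content of the sequence, which is given as a description because all points share the same libraries. Spearman's rho was 0.52 in RC over 355 names and 0.44 in GC over 356 names, and 0.33 over 11 members and 0.35 over 12 members. The miR-3068 arms went against it, as the depleted 3p arm had a GC content of 45.5% and the retained 5p arm 40%. Lists of miRNAs known from other tissues moved in both directions. The summed level of 7 blood miRNAs was 0.00126% and 0.00123% in the cells of RC and GC and 0.0887% and 0.190% in their vesicles, and that of 4 liver and serum miRNAs was 0.0284% and 0.0393% in the cells and 0.418% and 1.18% in the vesicles. The liver and serum sum followed miR-122-5p alone, at 0.000491% and 0.000459% in cells and 0.401% and 1.14% in vesicles, since miR-192-5p was at 0.0238% and 0.0338% in cells and 0.0162% and 0.0347% in vesicles, miR-194-5p was lower in both vesicle libraries and miR-122-3p was at 0. The sum of 4 neural miRNAs went the other way, from 0.0467% and 0.0419% in cells to 0.0161% and 0.0149% in vesicles, and was mostly miR-128-3p, at 0.0455% and 0.0403% in cells and 0.0158% and 0.0142% in vesicles, while miR-124-3p was at 0. Of 6 cartilage miRNAs, 4 or 5 were detected in each library at a summed 0.526% to 1.00%, although miR-675-5p was at 0 throughout. That sum was mostly miR-140-3p, at 0.383% and 0.506% in cells and 0.951% and 0.794% in vesicles. miR-455-3p was also higher in both vesicle libraries, while miR-140-5p and miR-455-5p were lower in both. miR-675-3p had 1 read, in GC-cells. The part of these other miRNAs in the members' ratios was not tested.

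Single members were then compared between zones. Among those at 10 reads or more in both libraries, none of 5 differed 2-fold between RC-MVs and GC-MVs, beside 23.6% of 271 names that were higher in RC-MVs and 12.2% that were lower, and their medians were 0.16 and 0.15 on the log2 scale. The share of all names turned with the scaling, to 16.2% and 14.8% with TMM, 15.9% and 16.2% with DESeq2, and 8.12% and 29.5% without the 3 most abundant miRNAs, while the members' counts stayed at 0. The counting intervals of all 5 included 1. For miR-3559-3p, 10 reads in RC-MVs stood against 0 in GC-MVs, which is at least 2.95-fold more with 0 set at 3, and at least 1.91-fold without the 3 most abundant miRNAs in the totals. The lower end of its exact interval was 1.99. Between RC-cells and GC-cells, 1 of 11 members was 2-fold higher and none lower, beside 10.6% and 2.64% of 379 names, with medians of -0.06 and 0.29. These calls turned with the scaling, as 0 members were higher and 2, miR-6328 and miR-3558-3p, were lower under each of 3 others (TMM, DESeq2 size factors and totals without the 3 most abundant miRNAs). Over all 379 names, 3.96% to 4.75% were then higher and 6.07% to 6.60% lower.

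The member that differed was miR-6331, which was 2.09-fold higher in RC-cells than in GC-cells (1.75 to 2.49). Other scalings of the libraries lowered it to between 1.63-fold and 1.67-fold. miR-6331 lies among the miRNAs of the imprinted cluster on chromosome 6, and 21 names lie within 10 kb of it on the same strand. All 18 of those with 10 reads in both cell libraries were higher in RC-cells, by a median of 1.66-fold, from 1.18-fold for miR-667-5p to 2.30-fold for miR-539-5p, and 3 of them exceeded miR-6331. With the other scalings, 16 or 17 of the 18 were higher, at medians from 1.29-fold to 1.33-fold, and the lowest ratio was 0.921 to 0.946. In the vesicles the neighbours were spread widely. The ratio was taken among those with 10 reads in the cell library, with 0 vesicle reads set at 3. For RC-MVs over RC-cells the median was 0.898, and 14 of 19 were above the 0.405 of miR-6331. These 14 include miR-376c-5p, where 20 cell reads stood against 0 vesicle reads. It counts as above only through the set value of 3, so its side of miR-6331 was not measured. For GC-MVs over GC-cells the median was 0.756, and 12 of 18 were above the 0.610 of miR-6331. With 10 reads in both libraries, which drops depleted neighbours, the medians were 1.06 and 1.26, and 12 of 14 and 12 of 13 were above miR-6331.

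Of the other members with 10 reads in both cell libraries, miR-6328 and miR-3558-3p had the lowest ratios of RC-cells over GC-cells, at 0.531 (0.260 to 1.03) and 0.569 (0.310 to 1.01). Their intervals included 1 on percents, but under the other scalings the ratios were 0.415 to 0.426 and 0.444 to 0.456, with intervals below 1. miR-6329 was 1.30-fold lower in RC-cells than in GC-cells (1.12 to 1.51), and its ratio was 0.599 to 0.616 under the other scalings. miR-3102 was 1.56-fold higher (1.01 to 2.43), but 1.22-fold to 1.25-fold under the other scalings, with intervals that included 1. miR-3084d had 20 reads in RC-cells and 1 read in each of RC-MVs and GC-cells, a 22.8-fold ratio between the cells with an interval from 3.64 to 943. RefSeq lists miR-3084d under the symbol Snora19, a small nucleolar RNA name as for miR-3068, and the origin of its reads was not tested. Its listed mature sequence is identical to that of miR-3084a-3p, so reads of the 2 names cannot be told apart. Summed, they had 23, 1, 3 and 0 reads and an 8.72-fold ratio between RC-cells and GC-cells (2.64 to 45.4).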

How the data were processed

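Small RNA of 4 cultures or vesicle preparations, 1 library per group, had been sequenced on an Illumina HiSeq. Bowtie2 had been used for alignment to Rnor_6.0, and the counts that the authors deposited, whole numbers for each annotated locus, came from miARma-Seq and were not normalized. Tool versions, trimming, strand setting and the handling of multiple matches are not given in the sources used here. Counts of 774 loci were added to 740 names. Each count was given as a percent of all miRNA reads of its library, as the authors scaled theirs. A ratio of percents counted as a difference at 2-fold, for names with 10 reads in both libraries, or in the cell library alone (chosen after seeing the data). Shares have Wilson or exact binomial intervals, and ratios exact Clopper-Pearson intervals, at the 95% level. Against 0 reads, 3 reads were used.

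The members and lists, including the cartilage, blood, liver and serum, muscle and neural miRNAs, were chosen with earlier results of these data known. Summed muscle miRNAs were at 0.000368%, 0.00171%, 0.000715% and 0.00733% and neural ones at 0.0467%, 0.0161%, 0.0419% and 0.0149% of reads in the order of the libraries above. Members named are those with 10 reads in all libraries, the 5 most abundant of each library, the 3 highest and 3 lowest ratios of each comparison, those at the number boundary, and miRNAs of the opposite strand, the other arm or a shared seed. Members with 10 reads in any library, neighbours of miR-6331 and miR-3084a-3p were named after their values were seen.

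Sequences and neighbouring genes came from RefSeq (GRCr8), whose positions gave overlaps, distances and host genes but are not printed, because the counts were made on another build. The tools were Python 3.11.15 (scipy 1.17.1, numpy 2.4.6, matplotlib 3.10.9, pandas 2.3.3) and, for alternative scalings, DESeq2 1.42.0 and edgeR 4.0.16 under R 4.3.3.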

Additional observations from a re-analysis of the deposited data

Results flagged for a closer look

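For 4 members with reads in all 4 libraries, and 10 or more in one, the vesicle-to-cell ratio lay above 1 in one zone and below 1 in the other. miR-3068-5p was at 1.19 in RC and 0.999 in GC, miR-6329 at 1.32 and 0.908, miR-3102 at 1.13 and 0.794, and miR-3065-5p at 0.653 and 2.06. Of all names with 10 reads in all 4 libraries, 222 of 262 had both ratios on the same side of 1, as did 3 of 5 members. The side of 1 changed with the scaling for miR-3068-5p in GC, at 1.07, and for miR-3102 in RC, at 0.977, both with totals without the 3 most abundant miRNAs. Among members with 0 reads in GC-MVs, miR-3558-3p also had a ratio above 1 in RC, at 1.86 (0.607 to 4.83), and miR-6315 had 3 vesicle and 7 cell reads in RC. The difference between zones was not tested, as each ratio compares 1 library with 1 library. The counting intervals of both ratios of miR-3068-5p, miR-6329 and miR-3102 included 1, and the ratios of miR-3065-5p rest on 1 and 9 reads in RC and on 3 and 11 in GC.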

How the results depend on the processing

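Vesicles and cells could be paired by zone, but no paired test was run, and each group had 1 library. Depth and the missing replicates limit all values, above all those under 10 reads. With TMM and DESeq2 scaling, the summed percent was 0.0324 and 0.0306 in RC-cells, 0.0213 and 0.0209 in RC-MVs, and 0.0394 and 0.0378 in GC-cells. With totals without the 3 most abundant miRNAs it was 0.0785, 0.0476, 0.0945 and 0.0652 in the library order of the report. Without the most abundant member it was 0.0259 in RC-cells and 0.0252 in GC-cells, and without the miR-3559 arms 0.0238 and 0.0230. Without the miR-3068 arms it was 0.0240, 0.0162, 0.0221 and 0.0136 in the same order. Leaving out these arms was added after seeing the data.

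With a minimum of 10 reads, 12, 7, 13 and 6 members were detected, and at the smallest depth 19.0 were expected for RC-cells and 18.7 for GC-cells. With 1 read in both libraries, the members 2-fold higher and lower were 7 and 5 of 18 in RC-MVs over RC-cells (all names 33.6% and 30.4%), 7 and 2 of 14 in GC-MVs over GC-cells (32.1% and 25.2%), 1 and 4 of 14 in RC-MVs over GC-MVs (24.7% and 14.6%), and 4 and 2 of 27 in RC-cells over GC-cells (13.7% and 5.7%), and the median log2 ratio in GC-MVs over GC-cells was 0.63. With 50 reads in both, 0 of 2 members were higher or lower in either vesicle-to-cell comparison (all names 36.1% and 25.7% in RC, 30.5% and 21.3% in GC). With 10 reads in the cell library only, 3 of 12 were higher and 5 lower in RC-MVs over RC-cells (all names 26.7% and 33.8%). In GC-MVs over GC-cells, 3 of 13 were higher and 3 lower (24.3% and 27.8%). With 10 reads in both libraries and the interval beyond 2-fold, 1 higher and 0 lower of 7 were found in RC-MVs over RC-cells (all names 27.0% and 21.8%), 1 and 1 of 6 in GC-MVs over GC-cells (21.1% and 17.8%), and 0 higher of 11 in RC-cells over GC-cells (4.49%). At 4-fold the members' counts were also 1 and 0, 1 and 1, and 0 (all names 15.7% and 15%, 10.9% and 8.0%, and 1.58%). Under all 3 other scalings, 0 of 11 were higher and 2 lower in RC-cells over GC-cells (all names 3.96% to 4.75% and 6.07% to 6.60%). These scalings moved every log2 ratio of a comparison by one amount, by up to -0.21 in RC-MVs over RC-cells, -0.22 in GC-MVs over GC-cells, -0.63 in RC-MVs over GC-MVs and -0.36 in RC-cells over GC-cells. The GC ratio of miR-3068-5p, 0.999, ran from 0.855 with TMM to 1.07 without the 3 most abundant miRNAs. Of the ratios of single members under the planned settings, 154 moved by less than their counting interval and 18 by more, and none that was 2-fold changed direction. Adding 0.5 read moved none beyond its interval.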
